A study of Mus musculus with 6 samples.

Results

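The importins, exportins and nucleoporins are the genes of nuclear transport, here taken as every gene on the array whose symbol begins with Kpna or Kpnb, Ipo, Xpo, Tnpo, Nup, Ranbp, Nxf or Nxt and a following number or letter. The symbol rule found 56 genes among the 18193 with a probe set of their own, and 54 of them were bright enough to be tested, out of 13447 genes tested in all. Expression was measured in whole testes at postnatal day 21 (P21) of mice homozygous for the Fn allele of Dazap1 (Fn) and of wild-type mice (Wt), all on a mixed C57BL/6 and 129 background. There were 3 RNA samples of each genotype, each hybridised to its own one-colour array. The Fn allele is a floxed allele that keeps its neo cassette and yields an aberrant DAZAP1 protein, an RNA-binding protein, with a segment inserted between its RNA-binding domains. It is present in every cell of the animal, and the survivors of this genotype were described as few and small, so the testis was not changed alone. The labels call the samples biological replicates without naming the animals behind each RNA preparation, so a p-value here covers only how far these samples varied among themselves.

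Proteins and RNAs cross the nuclear envelope through nuclear pore complexes, which are built from nucleoporins arranged as rings, a membrane anchor, a central channel, cytoplasmic filaments and a nuclear basket. Importins and exportins carry cargo through the channel and let go of it according to the form of the small GTPase Ran, and importin alpha proteins are adaptors that link cargo to importin beta. Most mRNA leaves through another route, the NXF and NXT heterodimers. Germ cells are known to change their set of importin alpha adaptors as spermatogenesis proceeds, and several of these families have members with expression largely in the testis.

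Signals are MAS5 intensities, a linear brightness per probe set that the authors had scaled to one level per array (mean without the highest and lowest 2%: 498.6 in each Fn array and 498.4 to 498.5 in the Wt arrays). Each gene was read by its brightest probe set, and levels of different genes cannot be compared on this scale. A gene was called at an adjusted p under 0.05 in limma's moderated linear model on log2 signals, adjusted over 27022 probe sets. Dazap1 itself, read by 1 probe set, was lower in all 3 Fn arrays (log2 change -0.77, standard error, SE, 0.088, adjusted p = 6.7e-05), and the sources used here do not place that probe set relative to the inserted segment.

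Markers of the cell types of the testis differed along with the genotype, and their values stand beside every result that follows. The paper describes P21 testes of both genotypes as made up largely of pachytene spermatocytes, with haploid spermatids rare or absent. It also raises the concern that the Fn spermatocytes might be at an earlier stage. All 7 pachytene spermatocyte markers tested were lower in Fn testes, with a summed signal of 18275 to 25181 in the Fn arrays and 76598 to 83357 in the Wt arrays. Of 7 round spermatid markers tested, 6 were lower, with sums of 2047 to 2402 in Fn and 16015 to 18816 in Wt. All 7 spermatogonial markers were higher (13391 to 15531 in Fn, 6761 to 8360 in Wt), as were 7 of 8 Sertoli cell markers (25957 to 29418 in Fn, 14458 to 16849 in Wt) and 4 of 5 peritubular cell markers (15382 to 16430 in Fn, 8976 to 10754 in Wt). The 7 markers of early meiotic prophase summed to 29055 to 31079 in Fn and 30899 to 33588 in Wt, with 2 lower and 1 higher. Leydig cell markers were higher in 1 of 3, macrophage markers in 2 of 5 and endothelial markers in 1 of 5. Of the markers listed, Hspa1l of pachytene cells and Tnp1 of spermatids were under the filter but are counted in the sums. A sum adds the signals of different genes, so brighter markers weigh more in it. The part of these differences in each result was not tested, and in whole testes fewer cells of a type and less RNA per cell cannot be told apart.

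Nuclear transport genes did not move as a block. Of the 54 members tested, 23 were lower in Fn testes, 16 were higher and 15 did not pass. Among all genes tested, 24.7% were lower and 44.9% were higher, whereas 42.6% of the members were lower and 29.6% were higher. The median log2 change of the members was -0.09, beside 0.32 for all genes. At more than 2-fold, 9 members (16.7%) fell, near the 13.8% of all genes, and 4 members (7.41%) rose, beside 11.6% of all genes. The 3 Fn signals lay apart from the 3 Wt signals in 43 members, or 79.6%, near the 75.6% of all genes. Both falls and rises occurred among importin alpha adaptors, import receptors, exportins, mRNA export receptors and every layer of the nuclear pore. Among the 5 Ran-binding proteins tested that are not themselves transport receptors, 2 fell and 0 rose by their brightest probe sets. Another probe set of Ranbp2, 1 of those 5, was called higher.

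**Figure D1:**
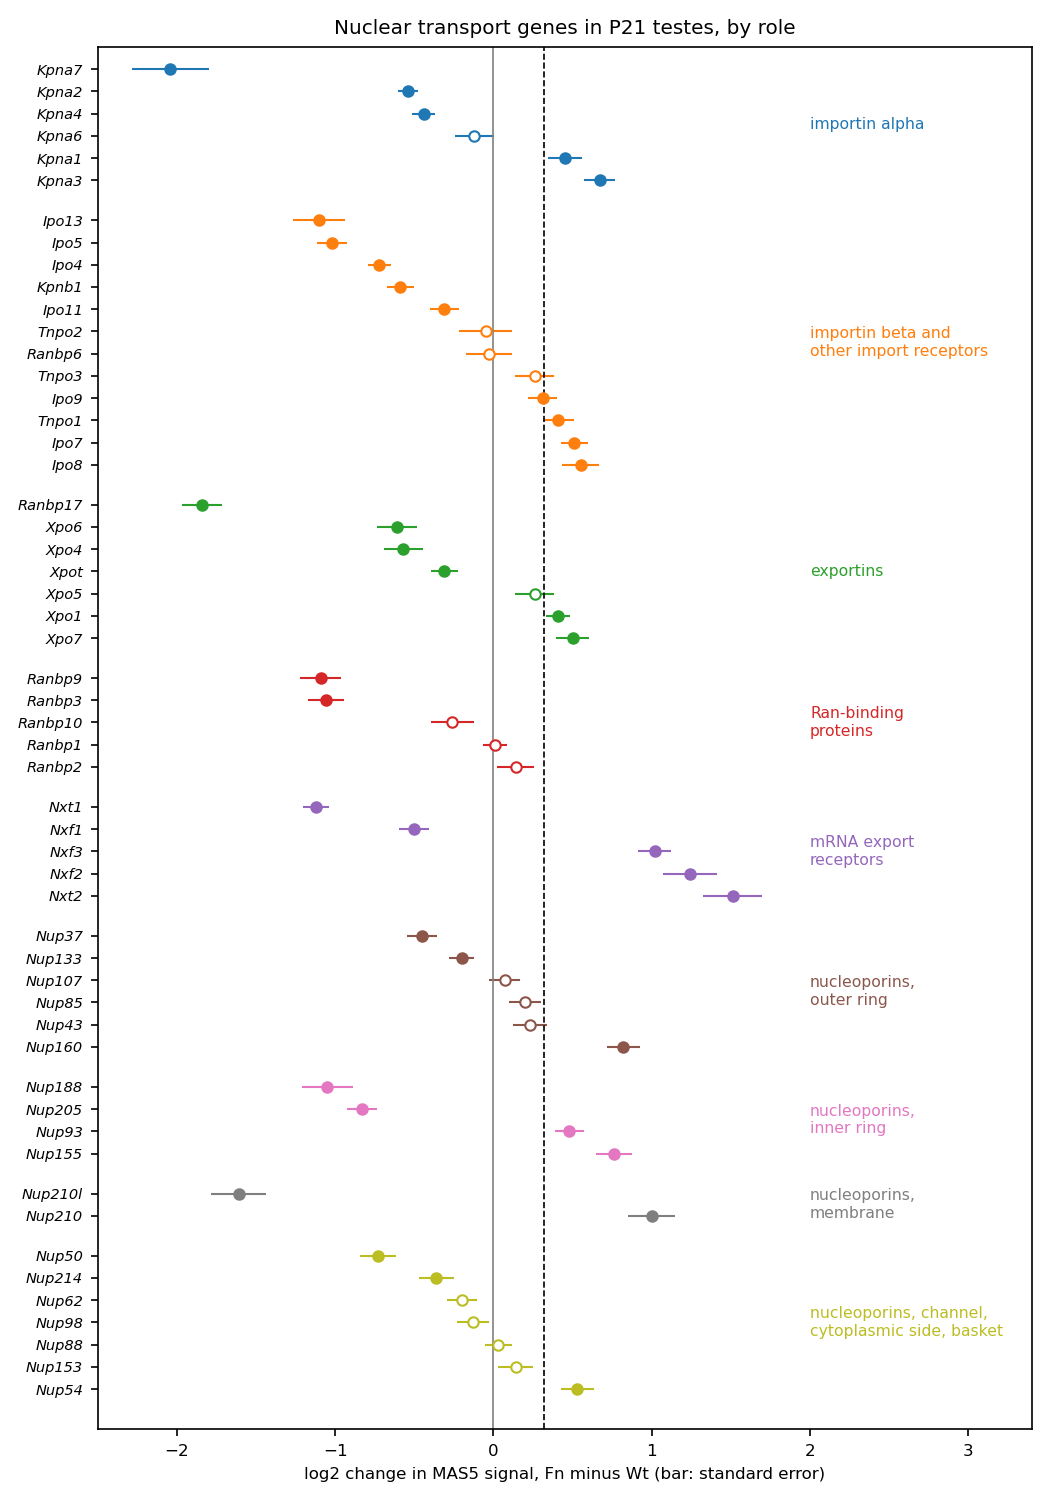
Log2 change in signal (Fn minus Wt, horizontal axis) of the 54 members tested, 1 row per gene grouped by role, with bars for the standard error, filled symbols for genes called at an adjusted p under 0.05, a grey line at 0 and a dashed line at the median of all genes, 0.32. The changes run from -2.04 for Kpna7 to 1.51 for Nxt2, and falls and rises stand side by side within most roles.

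**Figure D2:**
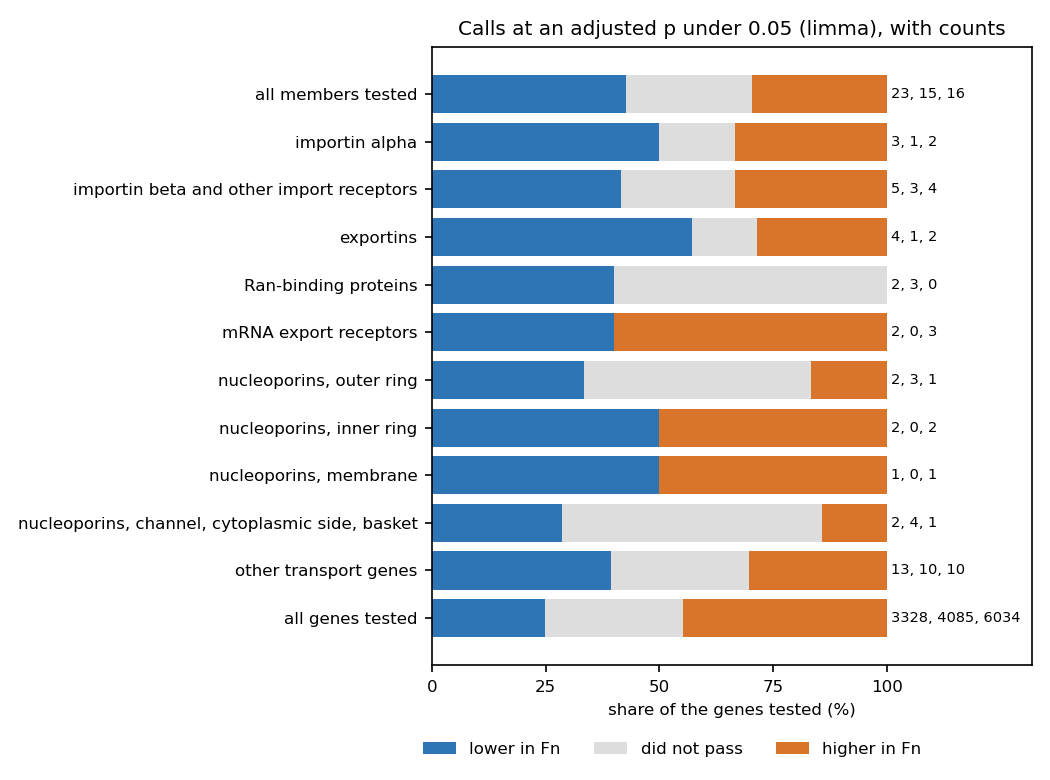
Share of the tested genes of each role (%, horizontal axis) that were lower in Fn, did not pass or were higher in Fn, with those 3 counts in that order at the right of each bar. The members were lower in 23 of 54, against 3328 of 13447 for all genes.

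The start regions of the members with the largest changes are shown so that they can be set beside their values. RefSeq windows of 300 bases around the start of transcription (assembly GRCm38.p6) were listed for 45 of the 56 members, and the windows of the 3 that fell most and the 3 that rose most among these 45 are printed. The windows are chr5:145009587-145009886 for Kpna7, chr11:33513704-33514003 for Ranbp17, chr2:148672365-148672664 for Nxt1, chrX:142227687-142227986 for Nxt2, chrX:134964705-134965004 for Nxf2 and chr6:91116777-91117076 for Nup210. Nxt1 and Nxt2 lie on the plus strand and the others on the minus strand, each is written 5′ to 3′ along its gene, and where 2 starts are listed the first is shown. Capitals mark 3 motifs on either strand, the E-box CACGTG, the core TGACG of the cAMP response element and the CCAAT box. Nup210l and Nxf3, described below, had no window in this table.
Kpna7: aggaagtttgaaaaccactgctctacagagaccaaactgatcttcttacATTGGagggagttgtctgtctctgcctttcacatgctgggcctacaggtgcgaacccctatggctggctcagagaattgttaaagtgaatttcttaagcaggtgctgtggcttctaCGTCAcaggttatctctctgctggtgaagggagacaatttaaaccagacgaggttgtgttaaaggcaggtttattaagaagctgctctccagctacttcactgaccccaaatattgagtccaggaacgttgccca
Ranbp17: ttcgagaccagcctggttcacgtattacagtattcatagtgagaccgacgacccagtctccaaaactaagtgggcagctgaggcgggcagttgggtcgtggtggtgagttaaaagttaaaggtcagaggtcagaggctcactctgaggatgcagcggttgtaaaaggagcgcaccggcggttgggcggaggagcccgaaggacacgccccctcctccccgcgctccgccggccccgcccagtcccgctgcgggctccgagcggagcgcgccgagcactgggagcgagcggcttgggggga
Nxt1: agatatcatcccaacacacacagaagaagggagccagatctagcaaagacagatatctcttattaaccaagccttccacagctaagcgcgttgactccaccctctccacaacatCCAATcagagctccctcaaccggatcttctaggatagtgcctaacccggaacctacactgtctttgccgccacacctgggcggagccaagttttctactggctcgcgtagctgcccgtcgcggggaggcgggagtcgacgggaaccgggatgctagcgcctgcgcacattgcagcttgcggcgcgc
Nxt2: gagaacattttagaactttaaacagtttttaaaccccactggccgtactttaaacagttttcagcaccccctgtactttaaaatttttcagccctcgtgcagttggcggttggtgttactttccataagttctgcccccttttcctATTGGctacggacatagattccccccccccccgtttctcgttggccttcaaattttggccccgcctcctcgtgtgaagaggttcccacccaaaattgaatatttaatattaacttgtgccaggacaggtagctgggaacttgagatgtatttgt
Nxf2: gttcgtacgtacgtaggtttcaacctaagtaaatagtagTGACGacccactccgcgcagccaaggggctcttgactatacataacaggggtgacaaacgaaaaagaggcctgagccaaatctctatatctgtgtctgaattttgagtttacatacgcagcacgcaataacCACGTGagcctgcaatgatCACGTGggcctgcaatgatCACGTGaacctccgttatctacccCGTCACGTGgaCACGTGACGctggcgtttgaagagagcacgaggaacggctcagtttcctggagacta
Nup210: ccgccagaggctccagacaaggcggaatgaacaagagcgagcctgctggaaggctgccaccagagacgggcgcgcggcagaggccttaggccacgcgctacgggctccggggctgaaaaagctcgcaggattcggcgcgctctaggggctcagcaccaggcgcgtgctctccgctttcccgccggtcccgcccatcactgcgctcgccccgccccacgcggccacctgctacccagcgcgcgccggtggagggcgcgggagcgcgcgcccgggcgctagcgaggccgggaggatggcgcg
The windows differ widely in these letters. The Nxf2 window shown holds 5 E-boxes, some overlapping its 3 TGACG cores, and only 5 of all 32851 windows hold as many E-boxes. Kpna7 has 1 TGACG core and 1 CCAAT box, Nxt1 and Nxt2 have 1 CCAAT box each, and neither Ranbp17 nor Nup210 has any of the 3 motifs. The second listed windows of Nxf2 and Nxt2, not shown, hold none of the 3 motifs, and that of Nxt1 holds 1 CCAAT box. An E-box occurred in 15.8% of the 57 windows of members and in 7.15% of all windows, TGACG in 35.1% of the windows of members and in 20.8% of all, and CCAAT in 45.6% of the windows of members and in 37.4% of all. The windows of members held a median of 27 CpG pairs, beside 7 for all windows, so the sets differ in base composition too. A match is a description of the letters and not of a bound site.

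Importin alpha adaptors divided between 3 that fell, 2 that rose and 1 that did not pass. Kpna7, the adaptor best known from mouse oocytes and early embryos, gave signals of 51.1, 44.3 and 55.5 in Fn testes, against 163, 209 and 257 in Wt testes. Its Fn signals are close to 48.0, the level under which probe sets were left out of the test, and lie below every Wt signal. The fall was the largest of any member on the deposited scale (log2 change -2.04, SE 0.244, adjusted p = 9.1e-05), but with 32 added to each signal it was of -1.54 on the log2 scale, and that of Ranbp17 was of -1.76. Kpna2, a widely expressed adaptor abundant in dividing cells, gave 8495, 8811 and 8044 in Fn testes and 12382, 11956 and 12421 in Wt testes. The arrays of each genotype were tightly grouped, and the fall was of -0.54 on the log2 scale (SE 0.061, adjusted p = 6.9e-05).

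Kpna3 and Kpna4 encode closely related adaptors, and their probe sets moved in opposite directions. Kpna3 gave 2680.1, 2539 and 2761 in Fn testes, against 1880.1, 1577 and 1589 in Wt testes. Each Fn array was above each Wt array (log2 change 0.67, SE 0.098, adjusted p = 0.0003), and its 2 further probe sets rose by 0.61 and 0.64 on the log2 scale. Kpna4 gave 3037, 3045 and 3124 in Fn testes and 4031, 4136 and 4302 in Wt testes, a log2 change of -0.44 (SE 0.072, adjusted p = 0.00061). A second, dimmer Kpna4 probe set fell further, by a log2 change of -1.24 (adjusted p = 0.00049), with signals of 187, 225 and 164 in Fn testes against 402, 385 and 581 in Wt testes.

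The remaining pair, Kpna1 and Kpna6, are also close relatives. Kpna1 gave 1105, 944 and 1075 in Fn testes and 780.3, 753 and 749.9 in Wt testes, a rise of 0.45 on the log2 scale (SE 0.107, adjusted p = 0.005). With the arrays centred on their medians the rise was 0.29 and no longer passed (adjusted p = 0.11). Kpna6 depended on the probe set. Its brighter one gave 1323, 1176 and 1516 in Fn testes and 1429, 1315 and 1627 in Wt testes, which overlap (log2 change -0.12, adjusted p = 0.4). Its dimmer one gave 240.2, 281 and 209.7 in Fn testes, against 789, 691 and 891 in Wt testes, a fall of more than 2-fold with no overlap (log2 change -1.70, SE 0.156, adjusted p = 1.8e-05).

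Importin beta and the other import receptors held 5 genes that fell, 4 that rose and 3 that did not pass, with a median log2 change of -0.04. Kpnb1, importin beta itself and the partner of the alpha adaptors, gave 2313, 2353 and 2421 in Fn testes and 3402, 3389.8 and 3867 in Wt testes. The groups were apart (log2 change -0.59, SE 0.085, adjusted p = 0.00027), and of its 3 further probe sets tested 2 fell as well. Ipo13, a receptor that works in both directions, importing the exon junction proteins MAGO and Y14 and exporting the initiation factor eIF1A, gave 599, 758 and 881 in Fn testes and 1444, 1447 and 1899 in Wt testes. This was the largest fall in the group (log2 change -1.10, SE 0.164, adjusted p = 0.00032). Ipo5 and Ipo4 import ribosomal proteins and histones. Ipo5 gave 2555, 2702 and 2761 in Fn testes, against 5144, 5017 and 6219.9 in Wt testes (log2 change -1.02, SE 0.096, adjusted p = 2e-05). Ipo4 gave 3407, 3219 and 3285 in Fn testes and 5210.2, 5516 and 5626 in Wt testes, a log2 change of -0.72 (SE 0.072, adjusted p = 3.1e-05). Neither pair of groups overlapped. The second Ipo5 probe set tested was not called (log2 change -0.01, adjusted p = 0.94), as described below. Ipo11, an importer of ubiquitin-conjugating enzymes, fell by less (log2 change -0.31, adjusted p = 0.015) and lost its call without Fn replicate 1 (adjusted p = 0.061) or without Wt replicate 1 (adjusted p = 0.055).

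Ipo7 and Ipo8, a pair of closely related importers, both rose. Ipo7 gave 3658, 3764 and 3384 in Fn testes and 2708, 2435 and 2422 in Wt testes (log2 change 0.51, SE 0.085, adjusted p = 0.00061). Ipo8 gave 781, 847 and 767 in Fn testes and 549, 584 and 504 in Wt testes (log2 change 0.55, SE 0.115, adjusted p = 0.0023), and its second probe set rose too. In both genes the lowest Fn array was above the highest Wt array. Tnpo1, the importer of hnRNP proteins such as hnRNP A1, was called higher by its brightest probe set and Ipo9, a carrier of histones H2A and H2B, by its own, yet a further probe set of each was called lower, as described below. Tnpo3, the importer of SR splicing factors, with a log2 change of 0.26, Tnpo2, a relative of Tnpo1, with -0.05, and Ranbp6, a relative of Ipo5, with -0.03, did not pass (adjusted p = 0.081, 0.82 and 0.87).

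Among the exportins 4 fell, 2 rose and 1 did not pass. Ranbp17, a relative of exportin 7 known for its expression in the testis, gave 375, 464 and 375 in Fn testes, against 1389.5, 1365 and 1573 in Wt testes. Every Fn array was far below every Wt array (log2 change -1.84, SE 0.127, adjusted p = 2.8e-06). Its 3 probe sets were close to each other, at log2 changes of -1.84, -1.77 and -1.91. Xpo7, exportin 7 itself, which carries a broad set of cargo, went the other way, with 3076, 3562 and 2821 in Fn testes and 2257, 2364 and 2039 in Wt testes (log2 change 0.50, SE 0.106, adjusted p = 0.0025). A second Xpo7 probe set rose by 0.67 on the log2 scale (adjusted p = 0.0003).

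Xpo6, the exporter of actin bound to profilin, gave 1767, 2003 and 2184 in Fn testes and 2793, 2761 and 3599.6 in Wt testes (log2 change -0.61, SE 0.125, adjusted p = 0.002). Xpo4, an exporter of the translation factor eIF5A, gave 642, 623 and 514 in Fn testes, against 869.6, 858 and 905 in Wt testes (log2 change -0.57, SE 0.122, adjusted p = 0.0026). The groups were apart in both genes. Xpo1, known as CRM1 and the receptor for leucine-rich export signals, gave 5620.1, 5251 and 5616 in Fn testes and 4430.0, 4041 and 3965 in Wt testes. It rose by 0.41 on the log2 scale (SE 0.076, adjusted p = 0.0012), and its second probe set by 0.65. With the arrays centred on their medians its rise was 0.25 and did not pass (adjusted p = 0.064). Xpot, the tRNA exporter, and Xpo5, the exporter of microRNA precursors, depended on the probe set and are described below.

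The receptors of mRNA export held the largest rises, and all of those were on the X chromosome. Export itself is not measured by these arrays. For selected genes lowered in Fn testes, the paper reports no significant difference in mRNA export between the genotypes, with the data not shown. Nxf1, the main mRNA export receptor, gave 2331, 2433 and 2141 in Fn testes and 3138, 3590.3 and 3080.1 in Wt testes, a log2 change of -0.50 (SE 0.094, adjusted p = 0.0012). That fall rests on 1 probe set: a dim second one changed by 0.54 (adjusted p = 0.14), and the mean of both changed by 0.02. Nxt1, the small partner that NXF1 needs, gave 3091, 3297 and 2931 in Fn testes, against 6228, 6891 and 7147 in Wt testes. Each Fn array was far below each Wt array (log2 change -1.12, SE 0.083, adjusted p = 4.2e-06).

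The relatives of these genes moved the other way. Nxt2, a paralog of Nxt1 (chrX:142226770-142239700 in GRCm38.p6), gave 928, 867 and 703 in Fn testes and 369, 234 and 286 in Wt testes. This was the largest rise of any member on the deposited scale (log2 change 1.51, SE 0.184, adjusted p = 0.0001). Nxf2 (chrX:134944526-134964754), an export receptor largely of male germ cells in the mouse, gave 2696, 1848 and 2384 in Fn testes and 1214, 840.3 and 884 in Wt testes. The lowest Fn signal was above the highest Wt signal (log2 change 1.24, SE 0.172, adjusted p = 0.00022). Nxf3 (chrX:136071523-136139579), a relative known from the testis, gave 5234, 4636 and 5786 in Fn testes and 2836, 2514 and 2373 in Wt testes, again with no overlap (log2 change 1.02, SE 0.104, adjusted p = 3.6e-05). Nxf7, which lies between Nxf2 and Nxf3 on the same chromosome (chrX:135579555-135598781), was too dim to test, at 29.1, 35.5 and 1.9 in Fn testes and 13.1, 20.5 and 24.3 in Wt testes.

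These 3 genes are every X-linked member tested, and X-linked genes in general were higher in Fn testes. Of the 461 X-linked genes tested 86.3% were called higher, 49.9% rose by more than 2-fold, and their median log2 change was 1.01. The changes of Nxf3, Nxf2 and Nxt2 lie at and above that median. The other member that rose by more than 2-fold, Nup210, lies on chromosome 6.

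**Figure D3:**
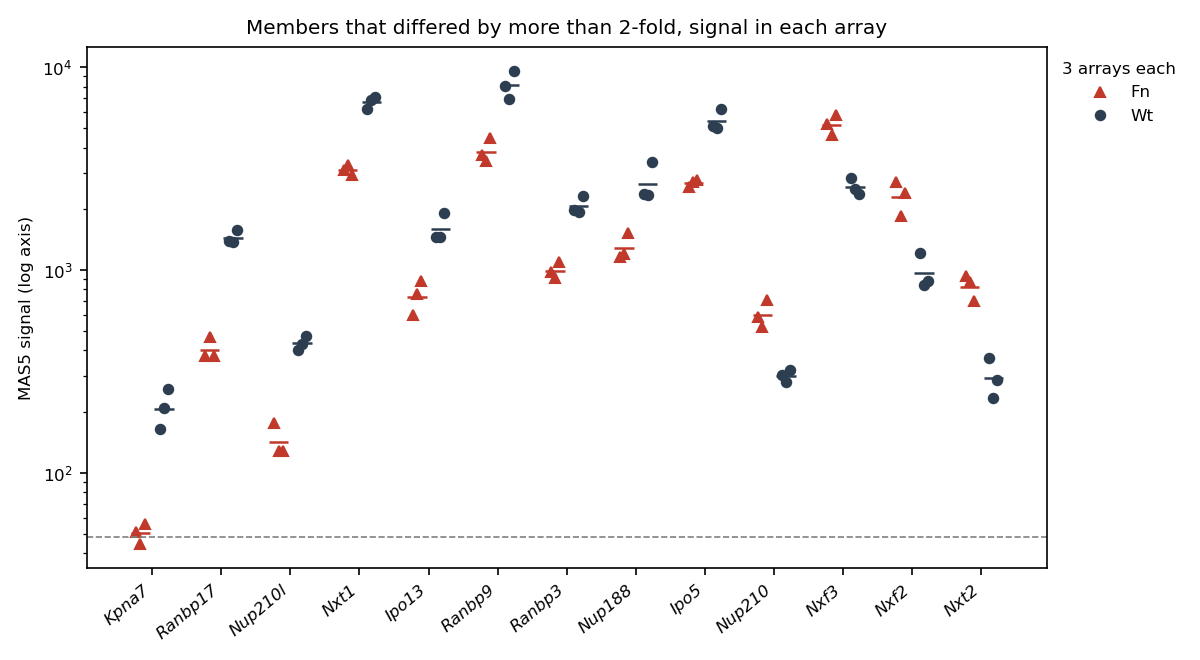
MAS5 signal (log axis) in each of the 3 Fn arrays (triangles, left) and the 3 Wt arrays (circles, right) for the 13 members called at more than 2-fold, ordered by log2 change, with short lines at the geometric means and a dashed line at 48.0, the level of the filter. No gene has overlapping groups, and the Fn signals of Kpna7 sit near the dashed line.

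Of the 5 Ran-binding proteins tested that are not themselves import or export receptors, 2 fell, both by more than 2-fold. Ranbp9, a scaffold of the CTLH ubiquitin ligase that is needed for spermatogenesis in the mouse, gave 3667, 3433 and 4443 in Fn testes and 8044, 6978 and 9594 in Wt testes (log2 change -1.09, SE 0.129, adjusted p = 8.5e-05). The suffix of this probe set marks probes that can match other transcripts. The second Ranbp9 probe set, without such a suffix, fell by a log2 change of -1.32 (adjusted p = 2.6e-05). Ranbp3, a cofactor of XPO1, gave 977, 910.0 and 1097 in Fn testes and 1962, 1932 and 2309 in Wt testes (log2 change -1.06, SE 0.113, adjusted p = 4.8e-05). A dimmer Ranbp3 probe set did not pass, at 0.54 (adjusted p = 0.23), and the mean of all its probe sets changed by -0.05 on the log2 scale.

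The 3 others did not pass by their brightest probe sets on the deposited scale. Ranbp1, which helps RanGAP to release RAN from transport complexes, gave 6906, 7126 and 6149 in Fn testes and 6559, 6945 and 6488 in Wt testes, which overlap (log2 change 0.01, SE 0.076, adjusted p = 0.9). Ranbp2, the large protein of the cytoplasmic filaments of the pore, had a log2 change of 0.14 by its brightest probe set (SE 0.116, adjusted p = 0.3). That set passed only without Wt replicate 2, its highest Wt array (0.27, adjusted p = 0.042). The other Ranbp2 probe set tested was called higher, with the groups apart (log2 change 0.45, adjusted p = 0.004). Ranbp10, a relative of Ranbp9, gave 1116, 1042 and 1256 in Fn testes and 1226, 1639 and 1256 in Wt testes. These overlap (log2 change -0.26, SE 0.135, adjusted p = 0.11), and its second probe set changed by 0.05. Ranbp3l, a relative of Ranbp3, was under the filter, at 46.6, 52.3 and 47.2 in Fn testes and 50.5, 36.6 and 27.5 in Wt testes.

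The 19 nucleoporins tested that carry a Nup symbol had a median log2 change of 0.03, with 7 lower, 5 higher and 7 that did not pass. The 2 membrane members, which are relatives of each other, differed most. Nup210l, a testis-expressed relative of NUP210, gave 176, 127 and 128 in Fn testes, against 405, 429 and 472 in Wt testes (log2 change -1.61, SE 0.175, adjusted p = 5e-05). Nup210, the pore glycoprotein of many tissues, gave 583, 524 and 712 in Fn testes and 303, 279 and 320.0 in Wt testes (log2 change 1.0, SE 0.148, adjusted p = 0.00031), just past the limit of 2-fold. Neither pair of groups overlapped, and the genes stood on opposite sides of 0.

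The inner ring, a scaffold that lines the pore, also split, with all 4 members called. Nup188 gave 1155, 1203 and 1519.8 in Fn testes and 2355, 2337 and 3398 in Wt testes (log2 change -1.05, SE 0.162, adjusted p = 0.0004). Nup205 encodes a protein of related structure that binds NUP93 in the same way. It gave 5982, 6778 and 5227 in Fn testes, against 10286, 10517 and 11109 in Wt testes (log2 change -0.83, SE 0.093, adjusted p = 6.1e-05), and each of these genes had a second probe set that fell. Nup93, their shared partner, gave 2717, 2674 and 2519.8 in Fn testes and 1917, 2016 and 1729 in Wt testes, a rise of 0.48 on the log2 scale (SE 0.091, adjusted p = 0.0013). Nup155, which ties the ring to the membrane, rose by its brightest probe set, with 1324, 1594 and 1375 in Fn testes and 897, 865 and 773 in Wt testes (log2 change 0.76, SE 0.114, adjusted p = 0.00034).

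In the outer ring, the Y-shaped scaffold that also acts at kinetochores, 2 members fell, 1 rose and 3 did not pass. Nup160 gave 1876, 1814 and 1950.0 in Fn testes and 1196, 1007 and 1008 in Wt testes, with each Fn array well above each Wt array (log2 change 0.82, SE 0.104, adjusted p = 0.00013). Nup37, which sits next to NUP160 in the complex, went the other way, with 2011, 2144 and 1780.2 in Fn testes and 2685, 2756 and 2636 in Wt testes (log2 change -0.45, SE 0.093, adjusted p = 0.0023). Nup133 was, by its brightest probe set, at the edge of the threshold (log2 change -0.20, adjusted p = 0.045, and 0.054 with same-numbered samples paired). That set lost its call when any 1 array was left out (adjusted p between 0.052 and 0.14). A dimmer Nup133 probe set was called lower (log2 change -0.44, adjusted p = 0.0039). Its further tested sets, at -0.13 and 0.26, did not pass (adjusted p = 0.21 and 0.37). Nup43 gave 788, 734 and 778 in Fn testes and 632, 695 and 632 in Wt testes (log2 change 0.23, adjusted p = 0.087), and its second probe set was called higher, at 0.50 (adjusted p = 0.0046). Nup107 and Nup85 had log2 changes of 0.07 and 0.20 (adjusted p = 0.56 and 0.12).

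Of the 7 nucleoporins of the central channel, the cytoplasmic side and the basket, 2 fell and 1 rose. Nup50, a basket protein that helps to release importin alpha from its cargo, gave 1663, 1613 and 2019.7 in Fn testes and 2688, 2823 and 3233 in Wt testes (log2 change -0.73, SE 0.114, adjusted p = 0.00044). Nup214, of the cytoplasmic side, gave 1075, 1032 and 1102 in Fn testes and 1353, 1247 and 1538 in Wt testes (log2 change -0.36, SE 0.108, adjusted p = 0.015). Nup54, a channel protein, rose, with 2641, 2443 and 2595 in Fn testes and 2010.3, 1593 and 1737 in Wt testes (log2 change 0.53, SE 0.103, adjusted p = 0.0016). The suffix of that Nup54 probe set marks shared probes. Further Nup54 sets rose by less, at 0.35 and 0.28 (adjusted p = 0.0047 and 0.028), or did not pass, at 0.34 and 0.23 (adjusted p = 0.43 and 0.2). The groups were apart in each of these genes.

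Nup62, the partner of NUP54 in the channel, was read by 5 probe sets. The brightest gave 6543, 7345 and 5672 in Fn testes and 7424, 7619.5 and 7349 in Wt testes and did not pass (log2 change -0.20, SE 0.093, adjusted p = 0.081, and 0.043 with same-numbered samples paired). Without Fn replicate 2, its brightest Fn array, the change was -0.29 (adjusted p = 0.014). Of the 4 others, 3 were called lower, at log2 changes of -0.32, -0.39 and -0.32. Nup88, the partner of NUP214, Nup98, which encodes a channel protein and the outer ring protein NUP96, and Nup153, of the basket, did not pass (log2 changes 0.03, -0.13 and 0.14, adjusted p = 0.79, 0.3 and 0.3).

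Several genes were read differently by their probe sets. Of 36 members with more than 1 probe set tested, 10 (27.8%) had every probe set called the same way, beside 37.4% of the 6159 such genes. These members included Ranbp17, Kpna3, Ipo4, Nup188, Nup205, Xpo1 and Ranbp9. In 3 members, Ipo9, Tnpo1 and Xpot, probe sets were called in opposite directions, as happened in 4.24% of the same 6159 genes. The change in the ratio of 2 probe sets within each array was tested too, an analysis chosen after the data had been seen. It differed in 10 of the 57 pairs of members, in 9 genes, beside 13.9% of the 10404 pairs of all genes. With each gene as the mean of all its probe sets, dim ones included, 12 member calls no longer passed (adjusted p between 0.084 and 0.95), those of Ipo5, Ipo9, Nup133, Nup155, Nup210, Nup214, Nxf1, Ranbp3, Tnpo1, Xpo4, Xpo7 and Xpot. The sources used here do not place these probe sets along the transcripts.

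Among the pairs that passed, Kpna6 had the widest gap, with its dim probe set falling by more than its bright one (difference of log2 changes, bright minus dim, 1.57, adjusted p = 0.0062). Tnpo1 came next. Its brightest probe set gave 2143, 1837 and 1828 in Fn testes and 1490.2, 1404 and 1478 in Wt testes (log2 change 0.41, adjusted p = 0.0052). Its other tested set, of like brightness in Wt testes, gave 905, 838 and 931 in Fn testes and 1435, 1317 and 1525 in Wt testes (log2 change -0.68, adjusted p = 0.00039). The difference was 1.08 (adjusted p = 0.0043), and the rise of the brightest set did not pass under centring on array medians (0.25, adjusted p = 0.11). The 2 Nxf1 probe sets, given above, differed by -1.05 (adjusted p = 0.032). In Ipo5 only 1 of its 2 tested probe sets fell: the second gave 2732, 3218 and 2783 in Fn testes and 2909.8, 2874 and 2977 in Wt testes (log2 change -0.01), a difference of -1.02 (adjusted p = 0.0062).

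The other pairs that passed had smaller gaps. The 2 Nup155 probe sets changed by 0.76 and -0.12 on the log2 scale (difference 0.88, adjusted p = 0.0097). The Kpna4 sets, both lower, differed by 0.80 (adjusted p = 0.046). Xpot gave 2450.1, 2198 and 2258 in Fn testes and 2754, 2804 and 2987 in Wt testes by its brightest set, which fell (log2 change -0.31, adjusted p = 0.01), and 2 further sets rose, by 0.33 and 0.34. Ipo9 gave 1781, 1685 and 1753 in Fn testes and 1439.6, 1329.5 and 1441 in Wt testes by its brightest set (log2 change 0.31, adjusted p = 0.013), and a dimmer set fell by a log2 change of -0.45 (difference 0.76, adjusted p = 0.0079). The rise of Ipo9 did not pass without Fn replicate 1 (adjusted p = 0.055), without Wt replicate 2 (adjusted p = 0.051) or after either centring of the arrays. Xpo5 gave 723, 697 and 892 in Fn testes and 637, 637 and 647 in Wt testes by its brightest set (log2 change 0.26, adjusted p = 0.098), and its second set, whose suffix marks shared probes, fell by a log2 change of -0.52 (adjusted p = 0.0039, difference 0.78, adjusted p = 0.0084).

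**Figure D4:**
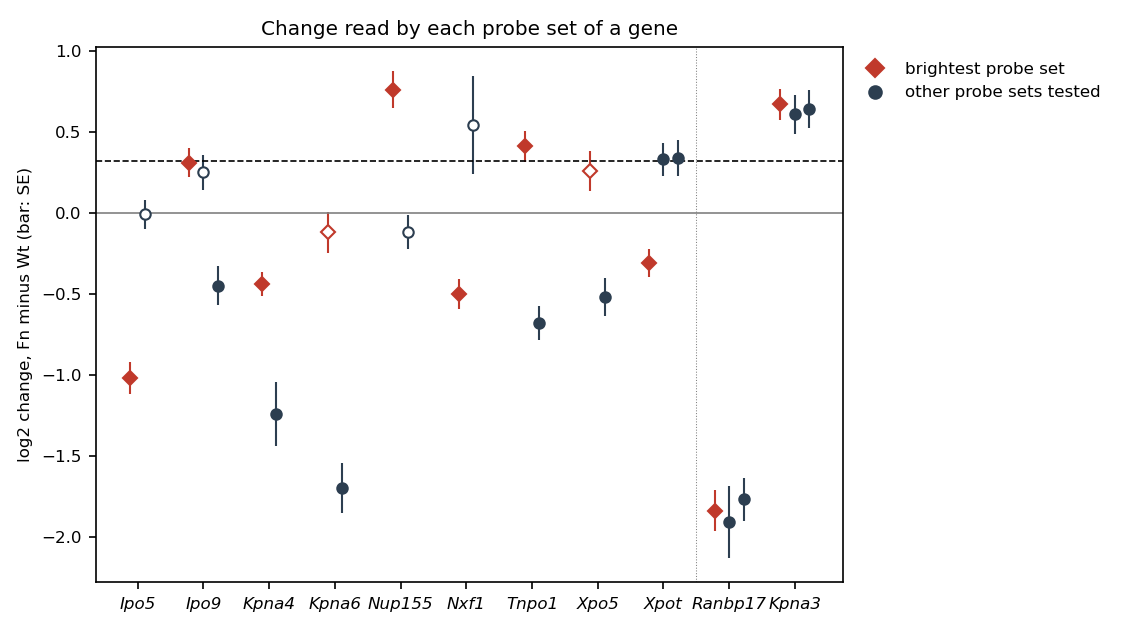
Log2 change (Fn minus Wt, vertical axis, bars for the standard error) of each tested probe set of the 9 members whose probe sets differed, and, right of the dotted line, of Ranbp17 and Kpna3, whose probe sets did not. Diamonds are the brightest probe set, circles the others, filled symbols are called and a dashed line marks 0.32, as in the plot by role. The Kpna6 sets lie at -0.12 and -1.70, whereas the 3 Ranbp17 sets lie between -1.91 and -1.77.

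Other genes of nuclear transport, which the symbol rule leaves out, were split in a similar manner. The list held 42 symbols, some of them older names of genes also listed. Of these, 33 had a probe set of their own and were tested: 13 were lower (39.4%), 10 were higher (30.3%) and 10 did not pass. Among all genes tested, 24.7% were lower and 44.9% were higher. The median log2 change of the list was 0.05. The largest fall was in Rangrf, the RAN-binding protein also called MOG1, with 3059, 3565 and 3029 in Fn testes and 8521, 9148 and 8874 in Wt testes (log2 change -1.46, adjusted p = 7.8e-07). Nupl2, a cytoplasmic nucleoporin, gave 258, 312 and 281 in Fn testes and 781, 682 and 799 in Wt testes (log2 change -1.41, adjusted p = 2.2e-05). Ddx19b, an RNA helicase that strips export factors from mRNA at the pore, gave 1062, 1204 and 983 in Fn testes and 2257, 2139.9 and 2546 in Wt testes (log2 change -1.10, adjusted p = 3.5e-05). The groups were apart in each of these.

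Thoc5, a subunit of the THO complex that loads export factors on mRNA, gave 953, 1033 and 1036 in Fn testes and 2038, 1778 and 2489.5 in Wt testes (log2 change -1.05, adjusted p = 0.0001). Seh1l, an outer ring nucleoporin, was the 1 gene of this list to rise by more than 2-fold, with 1417, 1262 and 1173 in Fn testes and 649.7, 591 and 475 in Wt testes (log2 change 1.17, adjusted p = 9.1e-05). Cse1l, the exportin that returns importin alpha to the cytoplasm, rose, with 4666, 4679 and 5047 in Fn testes against 3349.8, 3008 and 2726 in Wt testes (log2 change 0.67, adjusted p = 0.0002). Ran itself fell (log2 change -0.42, adjusted p = 0.00031), by a probe set whose suffix marks shared probes. Its guanine nucleotide exchange factor Rcc1 fell too (log2 change -0.46, adjusted p = 0.012), a call lost without Fn replicate 1 (-0.40, adjusted p = 0.055). Rangap1, the activator of its GTPase, was called higher (log2 change 0.42, adjusted p = 0.0085), but not with arrays centred on their medians (0.26, adjusted p = 0.15). With probe sets ending in _a_at, _s_at or _x_at passed over, Rangap1 changed by -0.17 and Ran by -0.14, and neither passed.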

How the data were processed

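RNA of 3 Fn and 3 Wt testis samples at P21 was read on Affymetrix mouse expression arrays. The deposited values are linear intensities per probe set, which the authors had computed with MAS5 (named in the submitters' notes, version not given) and scaled per array. Detection calls were not used. The paper's methods name no test for these arrays. Platform annotation named 1 gene for 34945 of 45037 probe sets, several for 932 and none for 9160, and only the first kind was used. All 56 members had a RefSeq entry by gene identifier, and 3 further probe sets that name a member and another gene were left out.

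Log2 intensities (1 value of 0 set to 0.1) were fitted with lmFit and eBayes (trend on) of limma 3.58.1 under R 4.3.3 to compare Fn with Wt. Probe sets under the 40th percentile of mean log2 signal, equal to a signal of 48.0, were left out, and 27022 remained. Benjamini-Hochberg adjustment was applied over these, and a gene was its brightest probe set. Ratios of geometric means were used for the limit of 2-fold. The steps were also run on simulated arrays in which few probe sets changed. Many genes changed in these data, so that run does not assess the calls made here. Precision is limited by the number of arrays.

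The members, roles and gene lists were chosen with earlier results of these data known. Values in every array were given for members past 2-fold, the 3 largest changes of each role, all importin alpha, mRNA export and membrane members, Nup62, Ranbp17, Xpo7 and members with probe sets called in opposite directions. Kpnb1, Ipo7, Ipo8, Xpo1, Nup93, Ranbp1, Ranbp3l, Xpo5 and Cse1l, and the changes of Ran, Rcc1 and Rangap1, were added after their values were seen. After subtracting group means, Fn and Wt arrays of the same number correlated at 0.131, 0.123 and 0.159 and arrays of different numbers at -0.15 to 0.035. The numbers were therefore taken to pair the samples, on the values alone, and this pairing entered only in the replicate block alternative. The main fit was unpaired. Spearman correlations were 0.951 to 0.961 among arrays of 1 genotype and 0.897 to 0.914 across genotypes, and no 2 arrays shared more than 0.266% of their values. Alternatives covered scaling, filter, pseudocount, prior variance, array weights, the probe set of a gene, threshold, replicate block and leaving out each array. Among them, probe sets ending in _a_at, _s_at or _x_at were passed over where a gene had another.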

Additional observations from a re-analysis of the deposited data

How the results depend on the processing

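Over 17 alternatives per gene, 24 of the 39 member calls held under every alternative that could test the gene. With the replicate block 23 members were lower and 16 higher, and the only calls of members that changed were those of Nup133 and Nup62. At more than 2-fold, 9 members were lower and 4 higher, 1860 of all genes were lower and 1555 higher, and 4 other transport genes were lower and 1 higher. The 10 other transport genes that were higher became 4 under centring on array medians, 5 under centring on the 75th percentile and 6 at an adjusted p under 0.01. The members' median log2 change of -0.09 became -0.24 under centring on array medians, -0.22 on the 75th percentile and -0.13 after quantile normalization. It was -0.05 with the filter at the 60th percentile and -0.01 with _a_at, _s_at and _x_at probe sets passed over. When 1 array was left out it was -0.15 to -0.02 (-0.15 without Fn replicate 3, -0.05 without Fn replicate 2 and -0.02 without Wt replicate 3). The median of all genes was 0.32 as deposited, 0.17 under centring on medians, 0.19 on the 75th percentile and 0.25 after quantile normalization, and the members' median minus that of all genes was -0.41 to -0.38 under each. Members lower and higher numbered 24 and 12 under centring on array medians. Under 1 or more alternatives the direction turned in 2 of the called members (Nxf1 and Tnpo1), in 9 members that were not called, Ranbp10 among them, and in 4 called genes of the other transport list (Ahctf1, Ddx39a, Rangap1 and Thoc1). Nxf1 changed by 0.02 and Tnpo1 by -0.19 as the mean of their probe sets. With _a_at, _s_at and _x_at probe sets passed over, Nxf1, then read by its dim set, changed by 0.54 and Ranbp10 by 0.05. Causes were not tested. Kpna7 was not among the genes tested at the 60th percentile.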
